A study of Mus musculus with 10 samples.

Results

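The enzymes described here carry glucose to pyruvate, lactate and the tricarboxylic acid (TCA) cycle, and their transcripts were followed in the subventricular zone (SVZ) of mice after stroke. The members were 37 genes for glucose and lactate carriers, glycolysis, lactate and pyruvate handling and the TCA cycle, chosen by name. A member was measured where an array probe was annotated to its symbol, and it was tested where that probe had a detection p-value under 0.05 in at least 4 of 9 mice. Of the 37 genes, 34 had a named probe and 31 were tested, by 45 of the 20401 tested probes (11376 named genes). Slc16a1 and Sucla2 were detected in 0 mice and Pfkfb3 in 2, so these genes gave no comparison. No probe was named Hk2, Gpi1 or Eno1. A probe named Eno1b, a gene nearly identical to Eno1, was detected in 0 mice and is not counted.

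Tissue was cut by laser from the SVZ, the layer beside the lateral ventricle where new neurons are born in adult mice. The 9 animals were BL6 mice 8 weeks of age, and all had an ischemic stroke in the striatum of 1 side. Mice 2995, 3155, 3157 and 3163 overexpressed Tlx (gene Nr2e1), a nuclear receptor of neural stem cells, and mice c1, c2, 2989, 2996 and 3164 were wild type. What drives the extra Tlx, the hemisphere taken and the time after stroke are not given in the sources used here. RNA was hybridised to Illumina bead arrays, with 2 arrays for c1 that were averaged to 1 mouse. Each array detected 20068 to 20590 of 45281 probes. Each probe gives a relative brightness, on the log2 scale throughout, and levels of different probes are not comparable. In bulk tissue, fewer cells of a type and less RNA per cell cannot be told apart.

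Glycolysis splits glucose into pyruvate in the cytosol and yields a small amount of ATP without oxygen. Pyruvate is then either reduced to lactate by lactate dehydrogenase or oxidised to acetyl-CoA by the mitochondrial pyruvate dehydrogenase complex, which pyruvate dehydrogenase kinases switch off. Acetyl-CoA feeds the TCA cycle, whose reduced cofactors drive respiration. Neural stem cells of the adult SVZ are known for a glycolytic metabolism, and glycolytic genes are among the classical targets of the hypoxia-inducible factors.

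Glycolytic, pyruvate and TCA cycle transcripts tended to lie slightly lower in the Tlx overexpressing mice, and 1 of the 31 tested members passed the test. That gene was Pgk1, phosphoglycerate kinase 1, which fell to 73.7% of wild type. It compares with 192 of 20401 probes past the threshold in either direction (0.941%) and 82 lower ones (0.402%). The difference, Tlx overexpressing minus wild type, was below 0 for 25 of 31 members (80.6%), against 49.1% of all tested probes. Its median was -0.19 over the members and 0.0038 over all tested probes. Over the 5341 tested probes with a mean log2 signal above 8, the median was 0.01 and 47.0% were negative. Here and below, each member counts once, by its brightest tested probe, whereas shares of all tested probes count every probe of a gene. Of the 14 other tested probes of members, 8 were negative.

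All 4 Tlx overexpressing mice lay below all 5 wild type mice for 5 members (16.1%), namely Gapdh, Pgk1, Ldha, Pdha1 and Idh3b, against 3.04% of all tested probes. No member showed the opposite separation, which 3.24% of probes did. At an unadjusted p under 0.05, 12 members were lower (38.7%), against 9.2% of all tested probes and 8.63% of the bright ones, and 0 members were higher. The 12 were Aldoa, Gapdh, Pgk1, Pgam1, Pkm, Ldha, Pdha1, Cs, Idh3b, Fh1, Mdh1 and Mdh2. Members were measured in the same mice and are not replicates, so these counts describe the 9 animals and carry no p-value. The median distance between the 2 arrays of mouse c1 was 0.11 over the members, as over all tested probes.

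**Figure D1:**
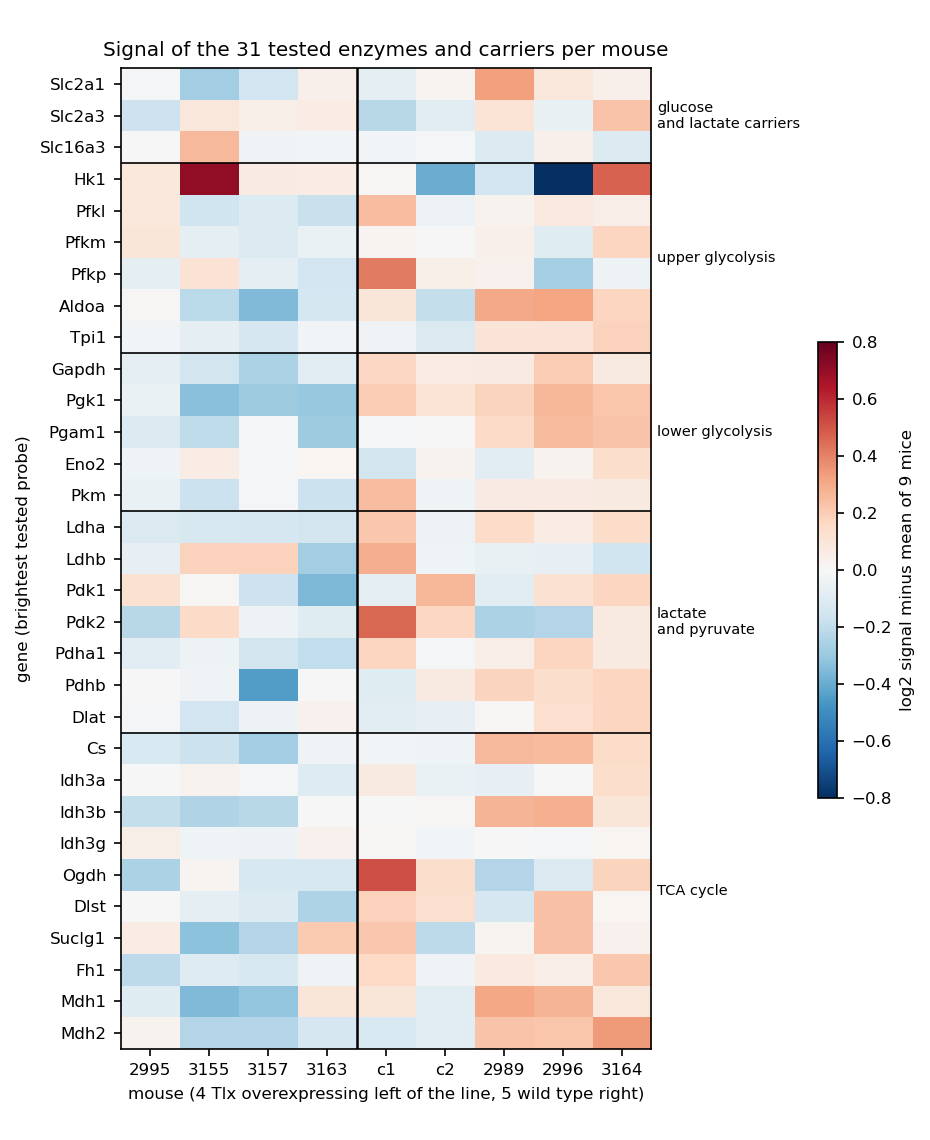
Log2 signal of the brightest tested probe of each of the 31 tested genes (rows, grouped by metabolic step) in each of the 9 mice (columns), shown as the distance from the mean of the 9 mice; the colour scale runs from -0.8 (blue) to 0.8 (red). The rows of lower glycolysis are mostly blue in the 4 Tlx overexpressing mice left of the line and red in the 5 wild type mice, except Eno2, and Hk1 holds the most extreme cells.

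Lower glycolysis, from glyceraldehyde 3-phosphate to pyruvate, had a median difference of -0.26 over 5 tested genes, of which 4 were negative. Pgk1 makes ATP by taking a phosphate from 1,3-bisphosphoglycerate. Its probe ILMN_2651886 gave 8.94, 8.65, 8.70 and 8.68 in Tlx overexpressing mice 2995, 3155, 3157 and 3163. It gave 9.19, 9.10, 9.16, 9.26 and 9.21 in wild type mice c1, c2, 2989, 2996 and 3164. The groups did not overlap, and mouse 2995 was the closest to wild type. The means were 8.74 ± 0.13 (SD, n = 4) and 9.18 ± 0.06 (SD, n = 5). Pgk1 fell by 0.44 (SE 0.08, 95% interval -0.62 to -0.26, limma adjusted p = 0.031). A dimmer Pgk1 probe, ILMN_2797973, gave 5.07 and 4.99, a difference of 0.08 in the opposite direction (limma adjusted p = 0.71). Another Pgk1 probe was detected in 0 mice. The call of Pgk1 was lost without mouse 3155 (limma adjusted p = 0.10), 3157 (0.13), 3163 (0.10), c1 (0.073), 2996 (0.062) or 3164 (0.061); leaving out each of the 9 mice in turn, the difference lay between -0.50 and -0.41.

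Gapdh, glyceraldehyde 3-phosphate dehydrogenase, feeds Pgk1. It gave 11.76, 11.69, 11.59 and 11.74 in the Tlx overexpressing mice, and 11.999, 11.89, 11.90, 12.04 and 11.91 in the wild type mice in the same order as above. Every Tlx overexpressing mouse lay below every wild type mouse, with SDs of 0.08 and 0.07 within the groups. The difference of the means was -0.26 (SE 0.08, 95% interval -0.42 to -0.09), 83.8% of wild type, and it missed the threshold over all probes (limma adjusted p = 0.11). Eno2, the neuronal enolase, gave 12.20, 12.30, 12.22 and 12.25 against 12.09, 12.26, 12.15, 12.26 and 12.38. Its groups overlapped fully and the difference was 0.01 (95% interval -0.16 to 0.19). Pgam1, phosphoglycerate mutase, had a difference of -0.28 (limma adjusted p = 0.14) and Pkm, pyruvate kinase, one of -0.19 (limma adjusted p = 0.26), both with overlapping groups.

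Promoter windows from RefSeq (build GRCm38.p6, 250 bases before to 50 after each annotated start) were searched for ACGTG, the core bound by hypoxia-inducible factors, and its reverse complement CACGT. Of the tested members, 29 had a window and 15 of them had a match. Among members whose genotypes did not overlap, Pgk1, Gapdh and Ldha had a match, and Pdha1 and Idh3b had none. Among members with a difference above 0, Hk1, Slc16a3 and Idh3g had a match, and Eno2 and Ldhb had none. Whether a match goes with a lower signal was not tested. Counted by window, 22 of 44 (50%) held a match, against 6447 of 32851 windows of all genes (19.6%). A gene can have several overlapping windows, as Ogdh does with a match in each, so windows are not independent. The windows of all genes were not matched to the members in expression or base composition, and no share by gene was counted over all genes. AAGTCA, the core that Tlx binds, or its reverse complement TGACTT was in 2 of 44 member windows (4.55%), those of Mdh2 and Pdk1, against 15.1% of all windows. A match is a run of letters and not a shown site, and a window without one says nothing of more distant sequence. The windows below belong to the gene that passed the test, to its neighbour Gapdh, to Ldha and to Pdk4, the pyruvate dehydrogenase kinase described further on; each is written 5′ to 3′ on the gene's strand, with ACGTG and CACGT in capitals.
Pgk1: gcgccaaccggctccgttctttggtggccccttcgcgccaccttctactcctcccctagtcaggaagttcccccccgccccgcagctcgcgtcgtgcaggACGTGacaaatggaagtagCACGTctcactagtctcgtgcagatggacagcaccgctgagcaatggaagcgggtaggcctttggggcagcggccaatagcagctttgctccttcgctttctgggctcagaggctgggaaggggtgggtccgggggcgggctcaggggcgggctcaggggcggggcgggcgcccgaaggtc
Gapdh: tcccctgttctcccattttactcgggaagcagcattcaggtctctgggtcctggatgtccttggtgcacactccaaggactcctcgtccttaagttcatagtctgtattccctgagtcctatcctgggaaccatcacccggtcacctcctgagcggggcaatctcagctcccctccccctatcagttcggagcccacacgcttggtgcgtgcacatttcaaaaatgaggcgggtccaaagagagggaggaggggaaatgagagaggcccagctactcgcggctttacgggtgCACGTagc
Ldha: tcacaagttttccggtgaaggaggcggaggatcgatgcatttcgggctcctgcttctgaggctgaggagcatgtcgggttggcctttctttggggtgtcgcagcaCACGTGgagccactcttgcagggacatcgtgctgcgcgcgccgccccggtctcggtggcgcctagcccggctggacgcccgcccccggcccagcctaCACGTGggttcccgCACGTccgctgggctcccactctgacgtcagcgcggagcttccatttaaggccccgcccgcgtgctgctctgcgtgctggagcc
Pdk4: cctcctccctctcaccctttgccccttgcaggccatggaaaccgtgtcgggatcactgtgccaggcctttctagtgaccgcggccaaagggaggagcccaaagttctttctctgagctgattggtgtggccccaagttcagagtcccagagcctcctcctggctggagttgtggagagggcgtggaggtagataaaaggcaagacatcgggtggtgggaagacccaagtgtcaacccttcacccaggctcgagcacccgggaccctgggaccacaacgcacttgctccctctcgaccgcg
The Pgk1 window (chrX:106186850-106187149, plus strand) has 2 matches and the Gapdh window (chr6:125165724-125166023, minus strand) has 1, after the start. The Ldha window (chr7:46845554-46845853, plus strand) has 5, since each CACGTG run is counted on both strands, and another annotated Ldha window has 0. The Pdk4 window (chr6:5496229-5496528, minus strand) has 0.

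Upper glycolysis, from glucose to the triose phosphates, had a median difference of -0.10 over 6 tested genes, 5 of them negative, and none passed the test. Aldoa, aldolase A, splits fructose 1,6-bisphosphate. It gave 11.15, 10.93, 10.79 and 11.01 in the Tlx overexpressing mice and 11.24, 10.95, 11.45, 11.46 and 11.32 in the wild type mice. Only the low wild type mouse c2 lay within the Tlx overexpressing range. The difference was -0.31 (SE 0.11, 95% interval -0.56 to -0.07, limma adjusted p = 0.17). Pfkl, the liver-type subunit of phosphofructokinase, gave 10.35, 10.10, 10.15 and 10.09 against 10.51, 10.22, 10.29, 10.34 and 10.32. Mice 3155, 3157 and 3163 lay below all wild type mice and 2995 did not (difference -0.16, limma adjusted p = 0.35).

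Phosphofructokinase is the committed, regulated step of glycolysis, and its other subunits showed smaller differences on their brightest probes. Pfkp, the platelet-type subunit, gave 9.91, 10.09, 9.90 and 9.82 against 10.39, 10.03, 10.01, 9.71 and 9.93. The groups overlapped, and wild type mice c1 and 2996 were the highest and the lowest of all 9 (difference -0.08, 95% interval -0.34 to 0.18). Pfkm, the muscle-type subunit, differed by -0.06 and Tpi1, triose phosphate isomerase, by -0.11. Hk1, the hexokinase that traps glucose in the cell, gave 5.99, 6.62, 5.97 and 5.97 against 5.92, 5.51, 5.76, 5.06 and 6.38. Mouse 3155 was high and mouse 2996 low, and the difference of 0.41 had the widest 95% interval of the members' brightest probes (-0.07 to 0.89, limma adjusted p = 0.36).

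Among the carriers, 3 of 4 genes were tested, 1 was negative and the median was 0.01, while the mean of their differences was -0.03. Slc2a1 encodes GLUT1, the glucose carrier of the blood-brain barrier. It gave 10.57, 10.31, 10.44 and 10.63 in the Tlx overexpressing mice and 10.51, 10.62, 10.92, 10.69 and 10.63 in the wild type mice. The groups overlapped, with mouse 3155 lowest and 2989 highest (difference -0.19, 95% interval -0.40 to 0.03, limma adjusted p = 0.36). Slc2a3, the neuronal carrier GLUT3, gave 9.22, 9.48, 9.44 and 9.45 against 9.17, 9.31, 9.50, 9.33 and 9.62. Its difference was 0.01 (95% interval -0.21 to 0.23), but -0.19 among mice 2995, 2989 and 2996 and -0.16 among mice 3155, 3157, 3163 and 3164. Within these sets the carrier median turned too, to -0.19 and -0.16, with 2 of 3 genes negative in each. Slc16a3, the lactate exporter MCT4, gave 4.49, 4.75, 4.46 and 4.47 against 4.46, 4.47, 4.38, 4.53 and 4.38. It was detected in only 2 mice of each genotype, so its difference of 0.09 (95% interval -0.09 to 0.28) sits near background.

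All 7 lactate and pyruvate genes were tested; 6 were negative, the median was -0.18 and none passed the test. Ldha, the subunit of lactate dehydrogenase that favours lactate production, gave 10.91, 10.90, 10.89 and 10.88 in the Tlx overexpressing mice. It gave 11.24, 10.98, 11.17, 11.08 and 11.17 in the wild type mice. The groups did not overlap, and the Tlx overexpressing mice were nearly equal (SD 0.01, against 0.10 in wild type). The difference was -0.24 (SE 0.08, 95% interval -0.40 to -0.07), 84.9% of wild type (limma adjusted p = 0.14). Ldhb, the subunit that favours lactate use, gave 4.48, 4.73, 4.73 and 4.27 against 4.84, 4.51, 4.49, 4.48 and 4.39. Its probe was dim, detected in 3 of 4 and 4 of 5 mice, with a difference of 0.01 (95% interval -0.25 to 0.27).

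Pdha1 encodes the catalytic alpha subunit of pyruvate dehydrogenase, where pyruvate enters the mitochondrial route. It gave 10.72, 10.76, 10.66 and 10.61 in the Tlx overexpressing mice and 10.98, 10.80, 10.86, 10.98 and 10.88 in the wild type mice. The groups did not overlap, though mouse 3155 and mouse c2 were close. The difference was -0.21 (SE 0.08, 95% interval -0.38 to -0.04), 86.5% of wild type (limma adjusted p = 0.18). Pdhb, the beta subunit, also differed by -0.21 with mouse 3157 far below the others, and Dlat, the acetyltransferase core, by -0.07. The kinases Pdk1 and Pdk2, which inhibit the complex, differed by -0.18 and -0.09 with overlapping groups.

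In the TCA cycle 10 of 11 genes were tested, 9 were negative and the median was -0.21, and none passed the test. Idh3b, a subunit of the NAD-dependent isocitrate dehydrogenase, gave 9.86, 9.81, 9.83 and 10.04 in the Tlx overexpressing mice. It gave 10.05, 10.06, 10.32, 10.33 and 10.15 in the wild type mice. The groups met without overlap, with Tlx overexpressing mouse 3163 just under wild type mouse c1. The difference was -0.30 (SE 0.09, 95% interval -0.50 to -0.10), 81.4% of wild type (limma adjusted p = 0.12). The other subunits of the same enzyme did not share this size: Idh3a differed by -0.04 (95% interval -0.21 to 0.13). Idh3g gave 11.43, 11.35, 11.34 and 11.42 against 11.39, 11.36, 11.38, 11.37 and 11.39, a difference of 0.01 (95% interval -0.14 to 0.15) with the wild type mice inside the Tlx overexpressing range.

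Cs, citrate synthase, opens the cycle by joining acetyl-CoA to oxaloacetate. It gave 8.34, 8.30, 8.19 and 8.44 in the Tlx overexpressing mice and 8.45, 8.43, 8.72, 8.72 and 8.61 in the wild type mice. The groups overlapped only where mouse 3163 passed mouse c2 (difference -0.27, SE 0.09, 95% interval -0.47 to -0.07, limma adjusted p = 0.15). The malate dehydrogenases Mdh1 (cytosolic) and Mdh2 (mitochondrial) differed by -0.30 and -0.26 (limma adjusted p = 0.19 and 0.24). Fumarase (Fh1) differed by -0.21, and Ogdh and Dlst of the 2-oxoglutarate dehydrogenase complex by -0.22 and -0.19. Suclg1, of succinyl-CoA ligase, differed by -0.13.

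**Figure D2:**
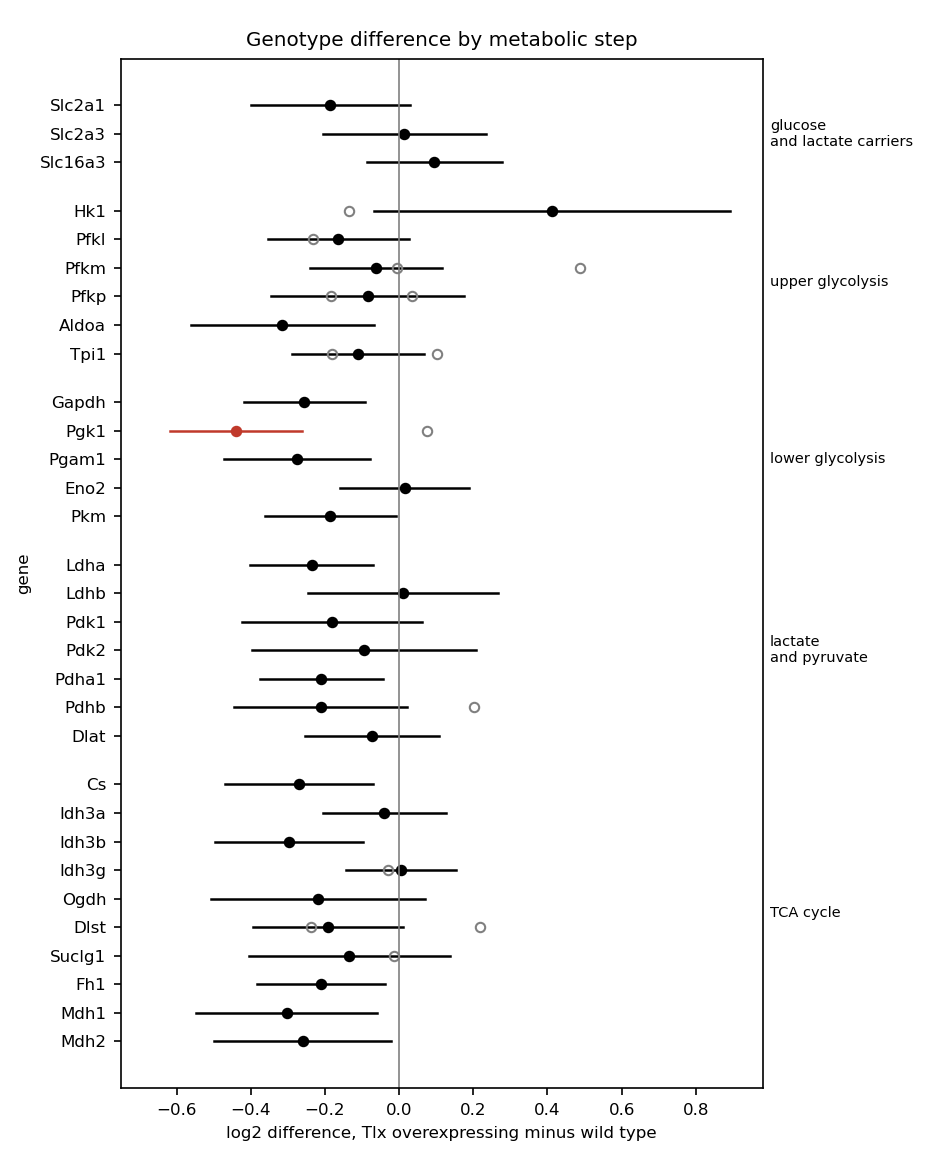
Difference in log2 signal between genotypes (horizontal axis, Tlx overexpressing minus wild type) for each of the 31 tested genes, grouped by metabolic step; filled points are the brightest tested probe with its 95% interval, and open circles are the gene's other tested probes. Pgk1 (red) is the only gene past the threshold, 25 of 31 filled points lie left of 0, and several open circles lie right of it.

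**Figure D3:**
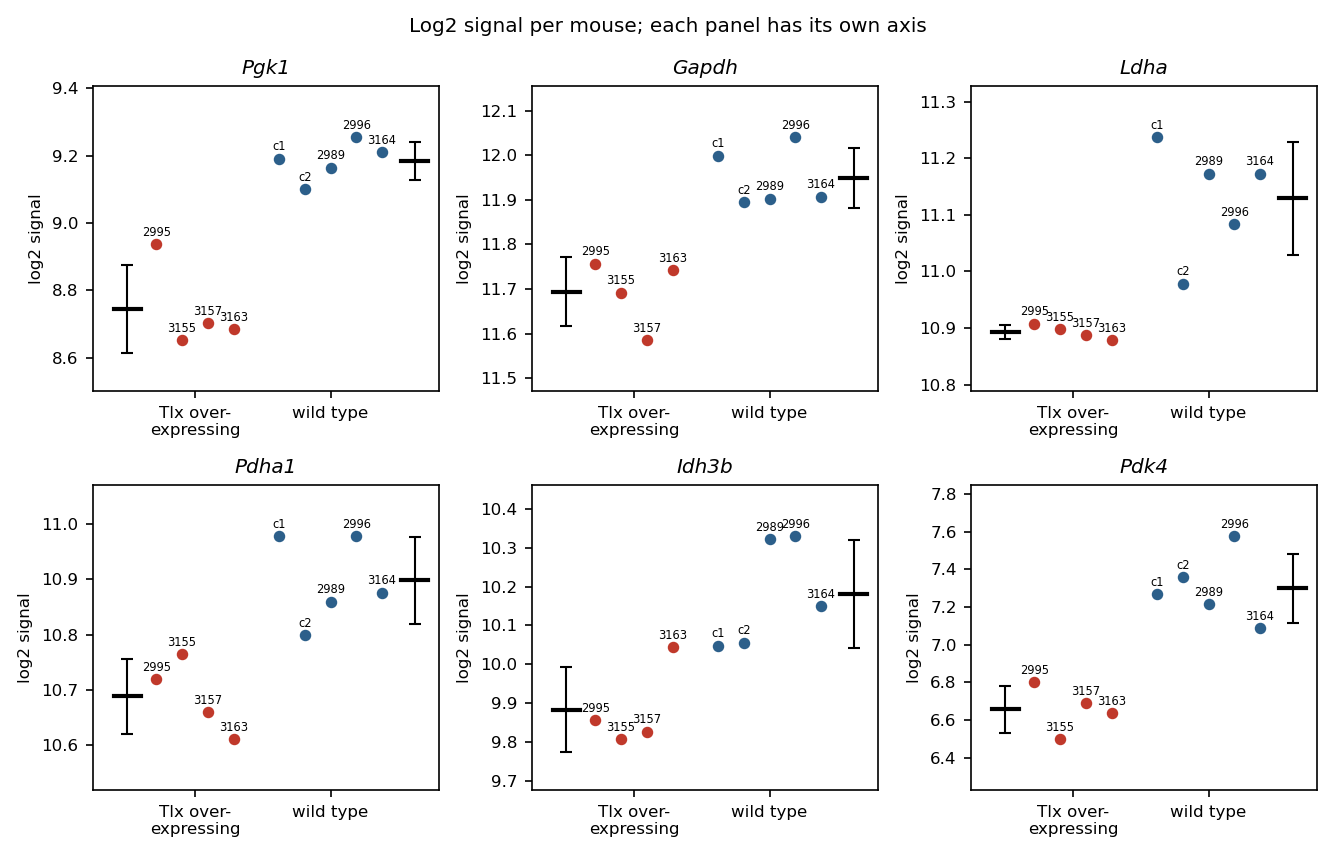
Log2 signal of the brightest probe in each mouse for 6 genes whose genotypes did not overlap (red, 4 Tlx overexpressing mice; blue, 5 wild type mice; black bars, mean and SD; vertical axes do not start at 0). Pgk1 and Pdk4 passed the test, and Gapdh, Ldha, Pdha1 and Idh3b did not.

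The pathway around the members was read from wider lists. Of 22 tested genes of 40 for other glycolytic and pyruvate functions, 13 were negative (median -0.06) and 1 passed the test, Pdk4. The negative genes include Me1, detected in 1 of 4 Tlx overexpressing and 4 of 5 wild type mice. Me1 thus met the detection filter through the wild type mice, and its sign is not independent of that filter. Pdk4 is the pyruvate dehydrogenase kinase induced in fasting, and it shuts off pyruvate oxidation. Its log2 signal was 6.80, 6.50, 6.69 and 6.64 in the Tlx overexpressing mice and 7.27, 7.36, 7.22, 7.58 and 7.09 in the wild type mice. The groups did not overlap, and Pdk4 fell by 0.64 (SE 0.10, 95% interval -0.87 to -0.42), to 64.0% of wild type (limma adjusted p = 0.0165). The call was lost without mouse 3155 (limma adjusted p = 0.053), 3157 (0.076) or 3163 (0.069). Pdk3, a related kinase, separated the genotypes with a difference of -0.31 (limma adjusted p = 0.11), whereas for Pdk1 and Pdk2 the genotypes overlapped. Of the phosphatases that reactivate the complex, Pdp1 differed by 0.06 and Pdp2 by 0.23, neither past the threshold. Their dimmer tested probes differed by 0.31 for Pdp1 (limma adjusted p = 0.19) and, in the opposite direction, by -0.07 and -0.08 for Pdp2. Pfkfb4, of the same list, separated the genotypes the other way, higher by 0.16 in the Tlx overexpressing mice (limma adjusted p = 0.27).

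Of 15 tested genes of 23 for other TCA cycle and shuttle functions, 10 were negative (median -0.03) and none passed. Sdhc, a membrane subunit of succinate dehydrogenase, had the smallest p among them. It gave 10.66, 10.45, 10.62 and 10.66 against 10.94, 10.90, 10.79, 10.71 and 10.89. Its groups did not overlap, with a difference of -0.25 (SE 0.08, limma adjusted p = 0.15). In the pentose phosphate route, 2 of 6 tested genes were negative; the median was 0.03 and the mean -0.03. Tkt, transketolase, gave 9.92, 9.52, 9.77 and 9.87 against 9.83, 10.07, 9.99, 9.95 and 9.92, with overlapping groups and a difference of -0.18 (limma adjusted p = 0.34).

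Glycogen genes were split. Of 11 tested, 5 were negative and none passed, and their median was 0.01 while their mean was -0.09. The negative ones included all 3 glycogen phosphorylases, the enzymes that release glucose units from glycogen. Pygb, the brain form, gave 8.71, 8.64, 8.76 and 8.82 in the Tlx overexpressing mice and 9.08, 9.10, 8.999, 9.03 and 8.94 in the wild type mice. The groups did not overlap, with a difference of -0.30 (SE 0.08, 95% interval -0.46 to -0.14, limma adjusted p = 0.077). Pygl and Pygm differed by -0.35 and -0.47 (limma adjusted p = 0.087 and 0.15). The Pygm probe was dim, detected in 3 of 4 Tlx overexpressing mice, and its groups overlapped. Among mice 2995, 2989 and 2996, Pygb, Pygl and Pygm differed by -0.30, -0.07 and 0.22. Among mice 3155, 3157, 3163 and 3164, they differed by -0.20, -0.34 and -0.81. Phkb, a subunit of the kinase that activates phosphorylase, differed by -0.34 (limma adjusted p = 0.14). The other tested subunits of that kinase, Phka1 and Phkg1, went the other way, by 0.04 and 0.24 (limma adjusted p = 0.86 and 0.26).

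Probes of a gene did not always give the same direction. Of 10 members with several tested probes, 8 had one of the other sign; of 14 other probes 8 were negative, and 0 passed the threshold. For Pfkm the dimmest tested probe differed by 0.49 against -0.06 for the brightest, and for Pdhb the other probe by 0.20 against -0.21. For Dlst the dimmest tested probe differed by 0.22 against -0.19 for the brightest, while a probe nearly as bright as the brightest gave -0.24. The Hk1 probe and the dim Pfkm probe followed the same mice: wild type mouse 2996 was lowest on both (5.06 and 5.80), and Tlx overexpressing mouse 3155 was highest on both (6.62 and 7.82). The Pfkp probe ILMN_2673233 was lowest in the same mouse 2996 (6.89) and highest in mouse 3164 (8.02). What these probes share was not tested.

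Mouse names fall into ranges that the labels do not explain. Among mice 2995, 2989 and 2996 the member median was -0.12 with 22 of 31 negative, and among mice 3155, 3157, 3163 and 3164 it was -0.22 with 28 of 31 negative. The first set has 1 Tlx overexpressing and 2 wild type mice, the second 3 and 1. Upper glycolysis did not keep its direction: its median was 0.04 with 2 of 6 negative in the first set and -0.23 with 5 of 6 in the second. Hk1 differed by 0.58 and -0.19. Pgk1 differed by -0.27 and -0.53 in these sets, Pdk4 by -0.59 and -0.48, Ldha by -0.22 and -0.28, Gapdh by -0.22 and -0.23, and Pdha1 by -0.20 in both. Mice c1 and c2 have no Tlx overexpressing partner. With the range as a block, the difference was -0.41 for Pgk1 and -0.53 for Pdk4, and neither passed the threshold (limma adjusted p = 0.14 and 0.11).

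Markers of other cells also moved with genotype. All 13 tested choroid plexus markers of 16 listed were negative (median -0.83), and 4 of them passed the test on their brightest probe. Their level per mouse, the mean of centred log2 signals, was 0.14, -1.06, -0.53 and -0.35 in the Tlx overexpressing mice. It was 0.68, 0.44, 0.06, 0.35 and 0.28 in wild type mice c1, c2, 2989, 2996 and 3164. Mouse 2995 thus lay between wild type mice 2989 and 2996 of its own range, and the highest mice were c1 and c2. For the 5 lower glycolytic genes the same measure was -0.07, -0.16, -0.11 and -0.17, against 0.03 to 0.16 in wild type. Mouse 2995 was the Tlx overexpressing mouse nearest to wild type in both. The other steps did not share this order: the nearest was mouse 3163 for the TCA cycle and mouse 3155 for lactate and pyruvate. Mouse 3155, lowest in choroid plexus level, had the highest upper glycolysis level of the Tlx overexpressing mice (0.05). The TCA cycle level also separated the genotypes, narrowly (highest Tlx overexpressing mouse -0.034, lowest wild type mouse -0.025), and lactate and pyruvate only by a margin far under the spread between mice. Upper glycolysis and carrier levels overlapped. With the choroid plexus level in the model, 1 of 20401 probes passed. That level itself differed between genotypes (mean -0.45 against 0.36), so this model cannot tell its part from that of genotype. The difference was then -0.30 for Pgk1 (SE 0.12, against 0.08 without that level) and -0.46 for Pdk4 (limma adjusted p = 0.84 and 0.81). The median of lower glycolysis was -0.19, and 26 of 31 members were negative.

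All 8 tested neuroblast and progenitor markers of 12 listed were positive, and 3 passed the test on their brightest probe. Their level was 0.06, 0.33, 0.36 and 0.20 in the Tlx overexpressing mice, and -0.32 to 0.05 in the wild type mice. Dcx, Dlx1 and Sox11, which mark newborn neurons of the SVZ, were detected in all 9 mice. The levels of the other marker lists overlapped between genotypes, with mean differences of -0.04 for neurons, -0.12 for astrocytes, -0.15 for endothelium, -0.10 for ependymal cells, -0.14 for striatal neurons, 0.18 for microglia, 0.18 for oligodendrocytes and 0.14 for red blood cells. With the neuron level in the model, the lower glycolysis median was -0.25 and Pgk1 differed by -0.44 (limma adjusted p = 0.026). The neuron level differed little between genotypes (mean -0.02 against 0.02), which left this model little to adjust. For the other cell types, neuroblasts and progenitors included, no such model was run. The part of any cell type in the lower signals was not tested. Nr2e1 itself had a dim probe with means of 5.43 and 5.01 (limma adjusted p = 0.084), and whether it reads the transgene is not known.

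**Figure D4:**
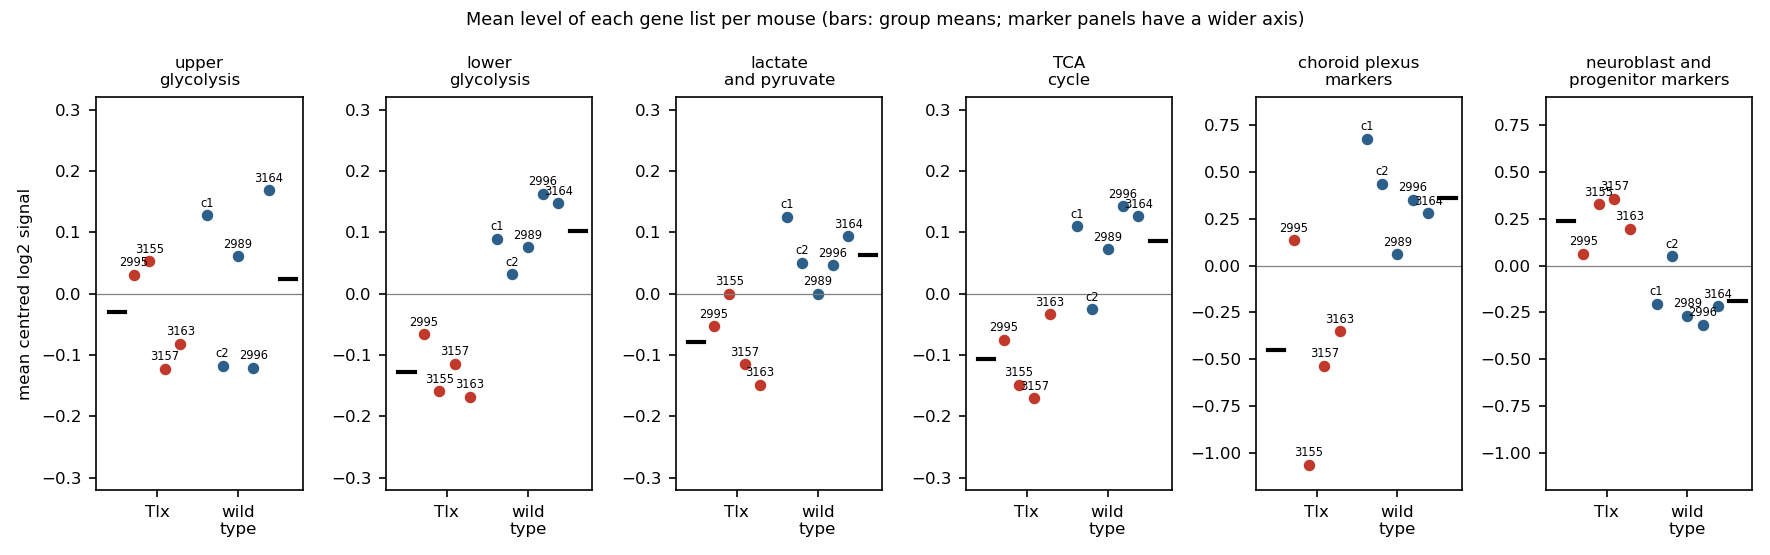
Mean centred log2 signal of each gene list in each mouse (red, 4 Tlx overexpressing mice; blue, 5 wild type mice; bars, group means), with a wider axis for the marker panels. Lower glycolysis separates the genotypes (-0.17 to -0.07 against 0.03 to 0.16), the TCA cycle and lactate and pyruvate do so by narrow margins, and upper glycolysis and the choroid plexus markers overlap.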

How the data were processed

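Labelled cRNA from 10 arrays of 9 mice was analysed. The authors deposited probe intensity on a linear scale in tables that differ from their names: the one called non-normalized had the same maximum and 75th percentile in every column and nearly the same median (40.69 to 40.71), and so was already quantile-normalized, so the other, from before normalization between arrays, was the start, the reverse of the plan. The former also gives, per the file headers, each probe's detection p-value. The authors' software and background treatment are not given in the sources used here.

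Here limma 3.58.1 in R 4.3.3 (neqc) applied normexp with an offset of 16, quantile normalization and log2; the negative controls it needs were inferred from detection p-values. The offset compresses differences of dim probes. The arrays of mouse c1 were averaged after normalization, and c1 counted as detected only where both were. Probes detected (p under 0.05) in at least 4 of 9 mice were kept. Genotypes were compared with lmFit and eBayes, in a two-sided test at 0.05, adjusted over the 20401 tested probes by Benjamini and Hochberg. The code was tested on simulated data.

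Probe names came from the platform annotation (34885 probes with 1 symbol, 18 with several, 10378 with none), updated through RefSeq (GRCm38.p6), which matched 34807. A gene is described by its brightest tested probe. The members, lists and tests were chosen with earlier results of these data known. Per-mouse values are given for members past the threshold, for the 2 of each step with the smallest p and the 1 with the largest, and of each wider list for genes past the threshold or else the 1 with the smallest p. Other per-mouse values were chosen after they were seen. Labels give no shared replicate numbers. Alternatives were the authors' normalized values, other background, offset, normalization and filters, array weights, the range of mouse numbers as a block, choroid plexus or neuron level as a covariate, either c1 array, leaving out each mouse, and other probes of a gene. The number of mice limits the precision.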

Additional observations from a re-analysis of the deposited data

Results flagged for a closer look

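Of 70 groups of 4 or 5 mice examined, 5 held a mouse whose gap to its nearest neighbour was large for the range of its group; chance gives about 1 in 20 groups. In the Tlx overexpressing mice, mouse 2995 was lowest for Slc2a3 at 9.22, with the next mouse at 9.44. Mouse 3155 was highest for Slc16a3 at 4.75 (next 4.49) and for Hk1 at 6.62 (next 5.99). Mouse 3157 was lowest for Pdhb at 7.49 (next 7.91). In the wild type mice, c1 was highest for Ldhb at 4.84 (next 4.51), a probe near background. None of these genes passed the genotype test.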

How the results depend on the processing

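The number of mice limits the calls, and dim probes such as Ldhb and Slc16a3 sit near background. The median over all probes moved by under 0.01 in every alternative, and 25 to 28 of 31 members were negative throughout (25 of 29 with detection in all 9 mice). The count of all probes past the threshold, 192, was 122 with an offset of 50, 56 with no filter, 609 with array weights, 51 with the mouse range as a block, 1 with the choroid plexus level and 536 with the neuron level as covariate, and 26 to 758 leaving out each mouse. The count of members past it was 0 with the block and 0 with the choroid plexus level, and 0 to 1 leaving out each mouse. Pgk1 kept its call in 13 of 22 alternatives. Pdk4 lost it in 6 of 21, among them no filter (limma adjusted p = 0.061). Pygb passed in 4 (limma adjusted p = 0.043 to 0.050). The lactate and pyruvate median was -0.12 with the authors' values, -0.12 with no background correction, -0.13 with the offset of 50 and -0.095 with the mean of a gene's probes. The carrier median was -0.086 with detection in all 9 mice, -0.18 with the block and -0.14 with the choroid plexus level. The lower glycolysis median was -0.19 with the choroid plexus level and -0.19 with the mean of probes. Leaving out each mouse gave medians of -0.040 to 0.073 for carriers, -0.13 to -0.08 for upper and -0.28 to -0.22 for lower glycolysis, -0.22 to -0.10 for lactate and pyruvate and -0.23 to -0.18 for the TCA cycle. Differences near 0 changed sign: Ldhb to -0.0021 (authors' values), -0.0022 (no background correction), -0.055 (choroid plexus level) and -0.028 (one c1 array), Slc2a3 to -0.0021 (cyclic loess), -0.18 (block) and -0.23 (choroid plexus level), and Idh3g to -0.00037 (array weights), -0.00042 (one c1 array) and -0.030 (another probe). Eno2 turned to -0.068 (block) and -0.062 (choroid plexus level), Pfkp to 0.023 (block) and 0.035 (another probe), Slc16a3 to -0.014 and Pfkl to 0.0080 (both choroid plexus level). Other probes gave 0.076 for Pgk1 and 0.092 for Tkt. Leaving out each mouse, differences ran from -0.040 to 0.073 for Slc2a3, -0.0097 to 0.019 for Idh3g, -0.021 to 0.052 for Eno2, -0.050 to 0.10 for Ldhb and -0.16 to 0.0094 for Pfkp. The cause of these changes was not tested. No paired analysis was possible because the labels give the mice of the genotypes no shared replicate numbers.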
